A study of Mus musculus with 6 samples.

Results

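The genes examined are 30 genes of mouse chromosome 1 that lie on either side of Cd28, the gene inactivated in the mice of this study. They were named as a list of symbols and matched by Entrez gene number, and all 30 are among the 14574 genes listed in any library. Bone marrow-derived macrophages, which are marrow cells grown into macrophages with the growth factor M-CSF, were profiled by RNA sequencing from Cd28 KO mice and from C57BL/6J (WT) mice, with 3 libraries per genotype. Marrow of both genotypes came from the femurs of animals aged 6 to 10 weeks and was cultured for 7 days in medium with 10% serum, to which human M-CSF (25 ng/ml) was added every 2 days, with no further treatment. The labels name the genotypes only, and not the exons removed in the Cd28 KO allele, the strain in which it was made, the number of backcrosses or the sex of the animals. Nothing in the labels says whether each library of a group is a separate animal, so the spread between libraries may be partly technical.

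Cd28 is a costimulatory receptor of T cells, and in the mouse genome it stands in a row with its relatives Ctla4 and Icos. As background, a gene targeted in embryonic stem cells is passed on together with the chromosome segment around it. When the mice are crossed to another strain, recombination shortens that segment from both sides, so genes close to the target stay linked to it longest. Genes within such a segment can carry alleles of the stem cell strain, often called passenger alleles, which may differ in sequence or in expression from those of the control strain. The comparison below relates the difference between Cd28 KO and WT libraries to the distance of each gene from Cd28.

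By the RefSeq annotation of GRCm38.p6, Cd28 spans positions 60746388 to 60773359 of chromosome 1. Of the 30 genes, 16 lie before it and 14 after it in chromosome order, from Cflar, which starts at 58711311, to Ramp1, which ends at 91225196. Distance is given as the gap between gene bodies. There are 26 members within 5 Mb of Cd28, from Raph1, the nearest at 0.179 Mb, to Idh1, the furthest at 4.38 Mb. The other 4 lie much further out and all on the later side, namely Stk11ip at 14.7 Mb, Wdfy1 at 18.9 Mb, B3gnt7 at 25.5 Mb and Ramp1 at 30.4 Mb. The members were chosen by symbol as chromosome 1 neighbours of Cd28, with their measured FPKM differences between Cd28 KO and WT in these same 6 libraries known, so those differences, their intervals and the counts of called members are descriptions and no independent test.

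The promoters of Stk11ip and Ramp1 are shown because both genes had about the same ratio between the genotypes and because their upstream sequence holds no annotated exon. Each is the 250 bases before the RefSeq start (GRCm38.p6, plus strand), written 5′ to 3′, with matches to a GC box, GGGCGG on either strand, in capitals.
Stk11ip, chr1:75521279-75521528: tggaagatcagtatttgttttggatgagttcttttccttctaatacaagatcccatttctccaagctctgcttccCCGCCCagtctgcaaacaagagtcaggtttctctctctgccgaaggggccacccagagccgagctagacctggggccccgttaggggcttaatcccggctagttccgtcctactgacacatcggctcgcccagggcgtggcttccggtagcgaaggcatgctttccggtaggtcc
Ramp1, chr1:91179572-91179821: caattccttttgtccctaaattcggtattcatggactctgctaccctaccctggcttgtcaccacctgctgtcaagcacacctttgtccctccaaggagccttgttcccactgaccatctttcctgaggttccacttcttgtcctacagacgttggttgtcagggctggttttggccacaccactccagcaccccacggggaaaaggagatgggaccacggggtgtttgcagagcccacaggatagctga
The Stk11ip window held 1 GC box and 12 CpG dinucleotides, and the Ramp1 window held 0 GC boxes and 4 CpG dinucleotides. Over 27025 RefSeq promoters cut to the same window, 32.9% held a GC box and the median number of CpG dinucleotides was 6. Neither window held GAGGAA, the core of the site of the macrophage factor PU.1 (23.1% of all promoters, both strands), TGACG, the core of the CREB site (17.9%), or TATAAA (13.0%). Of the 22 members with a single RefSeq promoter entry, 13 held a GC box, 5 the PU.1 core, 6 the CREB core and 2 the TATAAA letters. These are letter matches within 1 window of the reference strain and do not show which bases the Cd28 KO mice carry.

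Each library listed 12768 to 13327 genes, and its values summed to 510937 to 576313 FPKM, a count of fragments corrected for transcript length and for library size. The files hold no read counts, so the depth is unknown, which limits what can be said of genes near 0. All 9 macrophage markers were listed, from Mertk at 4.63 to 7.6 FPKM to Lyz2 at 9652 to 12716 FPKM, summing to 14839 to 16921 FPKM in the Cd28 KO and 14138 to 14840 FPKM in the WT libraries. Of 6 T cell markers 5 were listed, summing to 3.88 to 6.91 FPKM in Cd28 KO against 4.4 to 7.2 FPKM in WT, mostly Cd4 (2.95 to 6.42 FPKM), while Cd3e did not exceed 0.07 FPKM. The 5 neutrophil and progenitor markers summed to 3.46 to 8.27 against 2.03 to 6.1 FPKM, mostly S100a8 and S100a9, with Ly6g at or below 0.12 FPKM. The 4 dendritic cell markers, mostly Siglech, summed to 1.82 to 2.2 against 1.41 to 2.79 FPKM, the 4 B cell markers, mostly Cd79b, to 0.67 to 1.14 against 0.73 to 1.22 FPKM, and the 4 stromal markers to at most 0.57 FPKM. Of 4 erythroid and mast cell markers 3 were listed, and their sum was 1.68 to 2.08 FPKM in Cd28 KO against 3.42 to 4.69 in WT, most of it Kit, at 1.6 to 1.74 against 2.80 to 3.88. Whether these few transcripts bear on the members' values was not tested. In such bulk libraries, fewer cells of a type and less RNA per cell cannot be told apart. Replicate 3 of each genotype was far from the remaining 4 libraries on the first principal component, which held 73.8% of the variance, and genes of the Y chromosome were absent from those 4 and present in both replicate 3 libraries. Calls are therefore also given without replicate 3.

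Cd28 itself stood lower in the Cd28 KO libraries but was not absent from them. Its level was 25.7, 24.2 and 26.9 FPKM there against 38.2, 30.1 and 51.1 FPKM in WT. The groups did not overlap, and the Cd28 KO mean was 64.3% of the WT mean. An exact two-sided permutation test gave p = 0.1, the smallest that 3 against 3 allows. A value per gene does not show which exons were read, so the label is checked by it only in part.

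Of the 30 members, 24 reached a mean of 1 FPKM over the 6 libraries and were tested with limma on log2(FPKM + 1). The untested 6 were Ica1l, Carf, Nbeal1, Pard3b, Zdbf2 and Adam23. B3gnt7 passed this minimum only through the Cd28 KO libraries, since its WT mean was 0.373 FPKM, and Klf7 passed it through the replicate 3 libraries. The most abundant members were Eef1b2, which reloads the translation elongation factor eEF1A with GTP, at a mean of 142 FPKM, Idh1, the cytosolic NADP-dependent isocitrate dehydrogenase, at 119 FPKM, Nrp2, a co-receptor for semaphorins and VEGF, at 40.9 FPKM, the initiator caspase Casp8 at 24.8 FPKM, and Nop58, a core protein of box C/D snoRNPs, at 18.7 FPKM. The other 19 tested members lay between 1.53 and 16.2 FPKM.

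**Figure D1:**
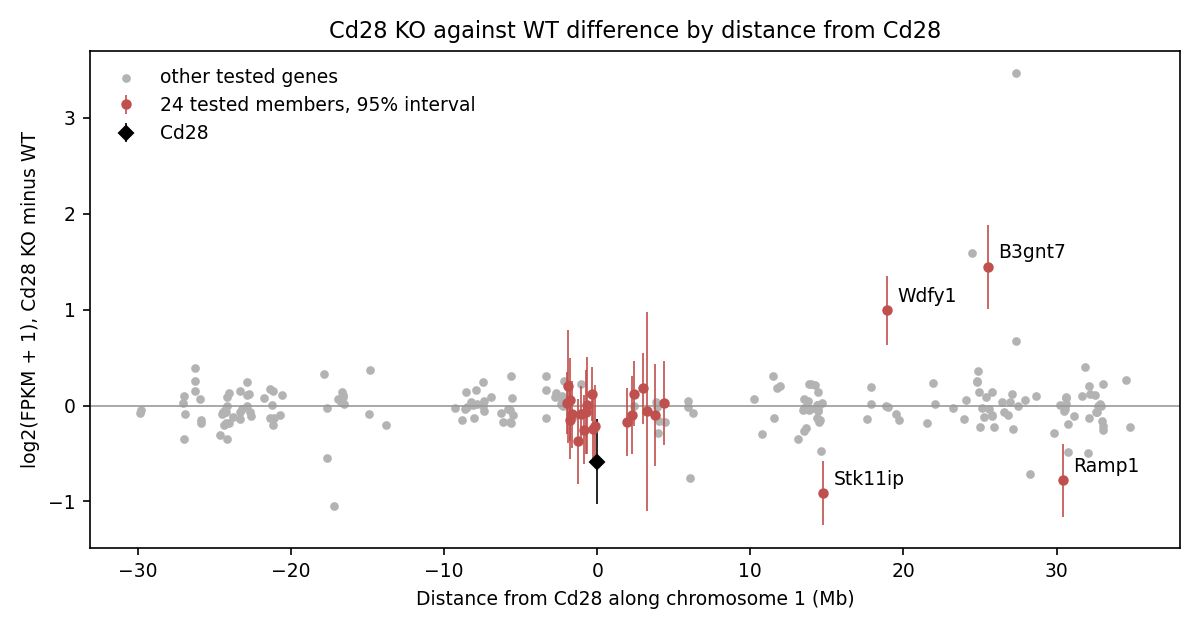
Difference between Cd28 KO and WT on the log2(FPKM + 1) scale (y axis) against distance from Cd28 along chromosome 1 in Mb (x axis, genes before Cd28 at negative values), for tested genes within 35 Mb. Red points are the 24 tested members with 95% intervals, the black diamond is Cd28 and grey points are other tested genes. The members close to Cd28 lie between -0.37 and 0.20, and the 4 labelled members further out lie at 0.99, 1.45, -0.92 and -0.78.

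Close to Cd28 the members differed little between the genotypes, and the large differences in the list belonged to the 4 remote genes. Over the 20 tested members within 5 Mb, log2 differences (Cd28 KO minus WT) ran from -0.37 for Fzd7 to 0.20 for Casp8, with 8 positive and 12 negative and a median of -0.08. The median over all 10172 tested genes was 0.00. The median absolute log2 difference was 0.11 in these 20 members and 0.09 over all tested genes. The 4 remote members had a median absolute log2 difference of 0.95, and their genotype groups were fully separated, 2 genes upward and 2 downward. Of all tested genes, 6.71% had separated groups. The 4 were listed with these differences known, so their contrast with the near members is a description.

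The following counts describe the contrast that was known when the list was made, and nothing is read from them. Without a block, limma called 0 of the 24 tested members at an adjusted p below 0.05, where 0.0197% of all tested genes were called. At an unadjusted p below 0.05 it listed 4 members, the 4 remote ones, against 2.49% of all tested genes. When the fit was blocked on replicate number, limma called 3 members, where 0.177% of all tested genes were called. Wdfy1 and B3gnt7 were higher, as were 0.138% of all tested genes, and Stk11ip was lower, as were 0.0393%. B3gnt7 had passed the minimum level only through the group in which it was higher. Ramp1 was called with a term for replicate 3 or in replicates 1 and 2 alone, which gave 4 members each, where 0.275% and 0.945% of all tested genes were called. In none of these fits was a member within 5 Mb of Cd28 called.

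B3gnt7, the member with the largest difference, encodes a glycosyltransferase that adds N-acetylglucosamine to growing polylactosamine and keratan sulfate chains. Its level was 2.48, 2.80 and 2.81 FPKM in Cd28 KO against 0.33, 0.12 and 0.67 FPKM in WT. All Cd28 KO values lay well above all WT values, and the ratio of the means was 7.22, with the WT values near the lower end of what the files list. The log2 difference was 1.45 ± 0.19 (SE, 95% interval 1.01 to 1.88, n = 3 each), and it depended on the pseudocount, with 2.74 when 0.1 replaced 1.

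Wdfy1, a FYVE domain protein of endosomes described as an adaptor that brings TRIF to Toll-like receptors 3 and 4, was also higher. It stood at 11.5, 12.1 and 9.09 FPKM in Cd28 KO against 4.65, 5.30 and 4.89 in WT, a ratio of 2.21 between the means. The lowest Cd28 KO value was that of replicate 3, and it still exceeded every WT value. The log2 difference was 0.99 ± 0.15 (SE, 95% interval 0.64 to 1.35), and 0.78 to 1.15 in the 3 same-numbered pairs. Wdfy1 and Mrpl44, which encodes a mitochondrial ribosomal protein, share 126 exonic bases on opposite strands, and the strand setting of the libraries is not given. Mrpl44 had a log2 difference of -0.01 ± 0.24 (SE).

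Stk11ip, which encodes a lysosomal protein that binds the kinase LKB1, stood at 9.92, 11.3 and 11.5 FPKM in Cd28 KO and at 19.95, 19.5 and 25.1 FPKM in WT. The groups were far apart, with Cd28 KO at 50.6% of WT, and the 3 Cd28 KO libraries were close to each other. The log2 difference was -0.92 ± 0.14 (SE, 95% interval -1.25 to -0.58).

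Ramp1, the subunit that turns the calcitonin receptor-like receptor into the receptor for the neuropeptide CGRP, stood at 2.98, 2.36 and 2.43 FPKM in Cd28 KO and at 5.35, 5.84 and 4.33 in WT. Cd28 KO was at 50.1% of WT, again without overlap. The log2 difference was -0.78 ± 0.16 (SE, 95% interval -1.16 to -0.40). Each of the 4 genes kept the sign of its difference in every alternative that tested it. These were 15 for Wdfy1 and Stk11ip and 14 for B3gnt7 and Ramp1. Because the groups do not overlap, the sign could not change when libraries were left out or the pseudocount or filter was changed. The block and the replicate 3 term left the differences themselves unchanged. In those settings the kept sign is therefore a description and no test.

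**Figure D2:**
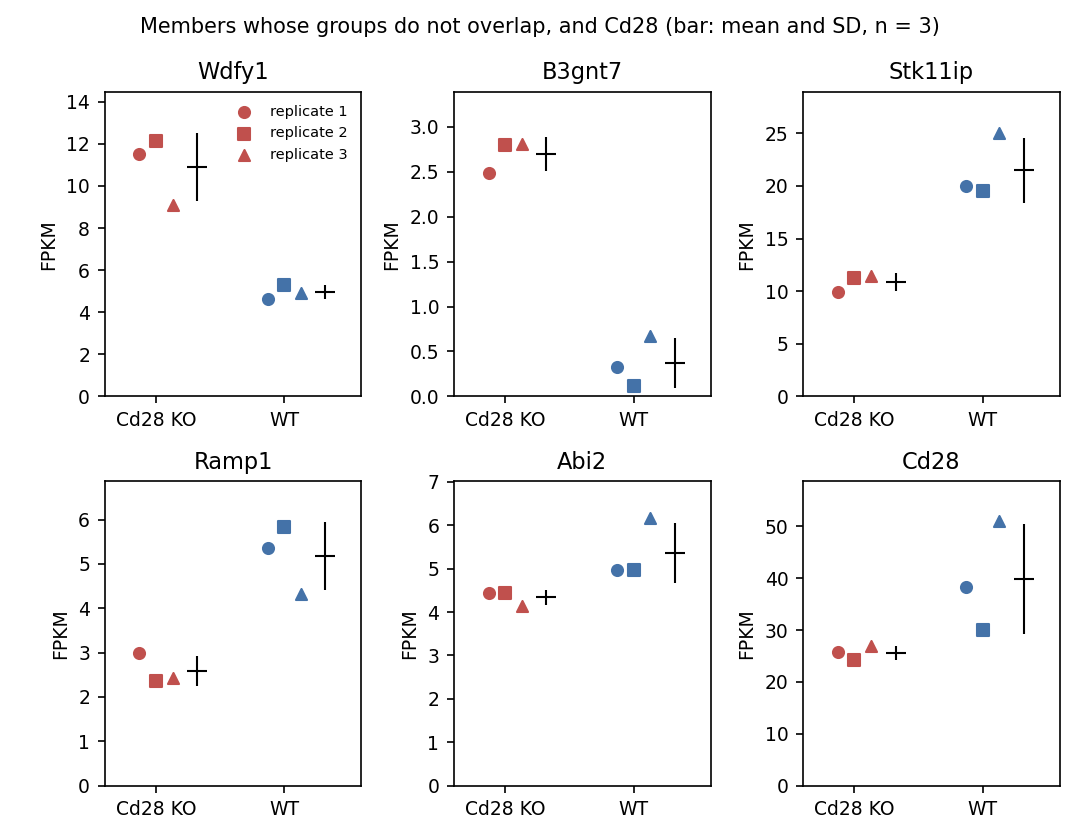
FPKM (y axis, from 0) in each library for the 5 members whose genotype groups do not overlap and for Cd28; symbols mark the replicate number, and the bar beside them the mean and SD of 3 libraries. Wdfy1 and B3gnt7 are higher in every Cd28 KO library, and Stk11ip, Ramp1, Abi2 and Cd28 are lower, Abi2 by a small margin (4.44 against 4.96 FPKM at the nearest).

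The tested genes next to each of these 4 members had small differences. Gmppa and Farsb, the nearest tested genes on the sides of Stk11ip, had log2 differences of 0.03 ± 0.15 and -0.14 ± 0.17 (SE). Beside Wdfy1, Ap1s3 had -0.01 ± 0.15, and Mrpl44 is given above. Armc9 and Ncl beside B3gnt7 had 0.09 ± 0.18 and -0.04 ± 0.14, and Lrrfip1 and Ube2f beside Ramp1 had 0.01 ± 0.27 and -0.06 ± 0.24. In all 8 neighbours the genotype groups overlapped. Only 6.71% of all tested genes had groups without overlap, so nothing is read from this count. The gaps were 24.5 to 78.4 kb except for Farsb, which is 2881 kb from Stk11ip, and Mrpl44, which overlaps Wdfy1.

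Among the members near Cd28, Abi2 was the 1 gene whose groups did not overlap. Abi2, an Abl interactor of the WAVE complex that drives actin branching, lies 0.264 Mb from Cd28. It stood at 4.44, 4.44 and 4.14 FPKM in Cd28 KO and at 4.97, 4.96 and 6.16 FPKM in WT. The gap between the groups was narrow, and the highest value was that of WT replicate 3. Its log2 difference of -0.25 ± 0.14 (SE, 95% interval -0.59 to 0.09) includes 0. By RefSeq gene spans, introns included, Abi2 shares 10766 bases with Raph1, which is on the opposite strand. By GENCODE M21 the gene bodies of Abi2 and Raph1 do not overlap. Whether shared reads bear on either value was not tested.

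Raph1, also called lamellipodin, which recruits Ena/VASP proteins to the leading edge, is the member nearest to Cd28. It stood at 5.07, 5.65 and 4.27 FPKM in Cd28 KO and at 5.33, 5.18 and 7.46 FPKM in WT. The groups overlapped, and the 2 replicate 3 libraries were the lowest and the highest of the 6. The log2 difference was -0.21 ± 0.18 (SE, 95% interval -0.64 to 0.21). Nrp2 also overlapped, with 39.1, 45.8 and 30.9 FPKM in Cd28 KO and 42.5, 41.8 and 45.1 FPKM in WT, a log2 difference of -0.17 ± 0.15 (SE), and Cd28 KO held both its lowest and its highest library. In replicate 3 alone the pair differed by -0.68 for Raph1 and -0.53 for Nrp2, against -0.12 to 0.13 for both genes in the other pairs, so without replicate 3 the differences were 0.02 and 0.01.

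Counted over the tested list, 2 members were higher in every Cd28 KO library (Wdfy1 and B3gnt7), where 3.84% of all tested genes were, and 3 were lower (Stk11ip, Ramp1 and Abi2), where 2.87% were. On the TPM scale, with each library scaled to the same sum, the shares over all tested genes were 2.35% higher and 3.95% lower, and the members counted stayed these 5. Quantile normalization and median centring each added Cyp20a1 to the higher and Bmpr2 to the lower members. Within 5 Mb it was 1 of 20 members (5.0%) in either direction, against 6.71% of all tested genes. Leaving out Cd28 KO replicate 2 gave 7 lower members, where 9.49% of all genes were lower, and leaving out Cd28 KO replicate 3 gave 4 higher and 5 lower members, where 16.7% and 7.60% were. In replicates 1 and 2 alone the counts were 6 and 5, where 25.8% and 18.3% of all genes did not overlap.

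**Figure D3:**
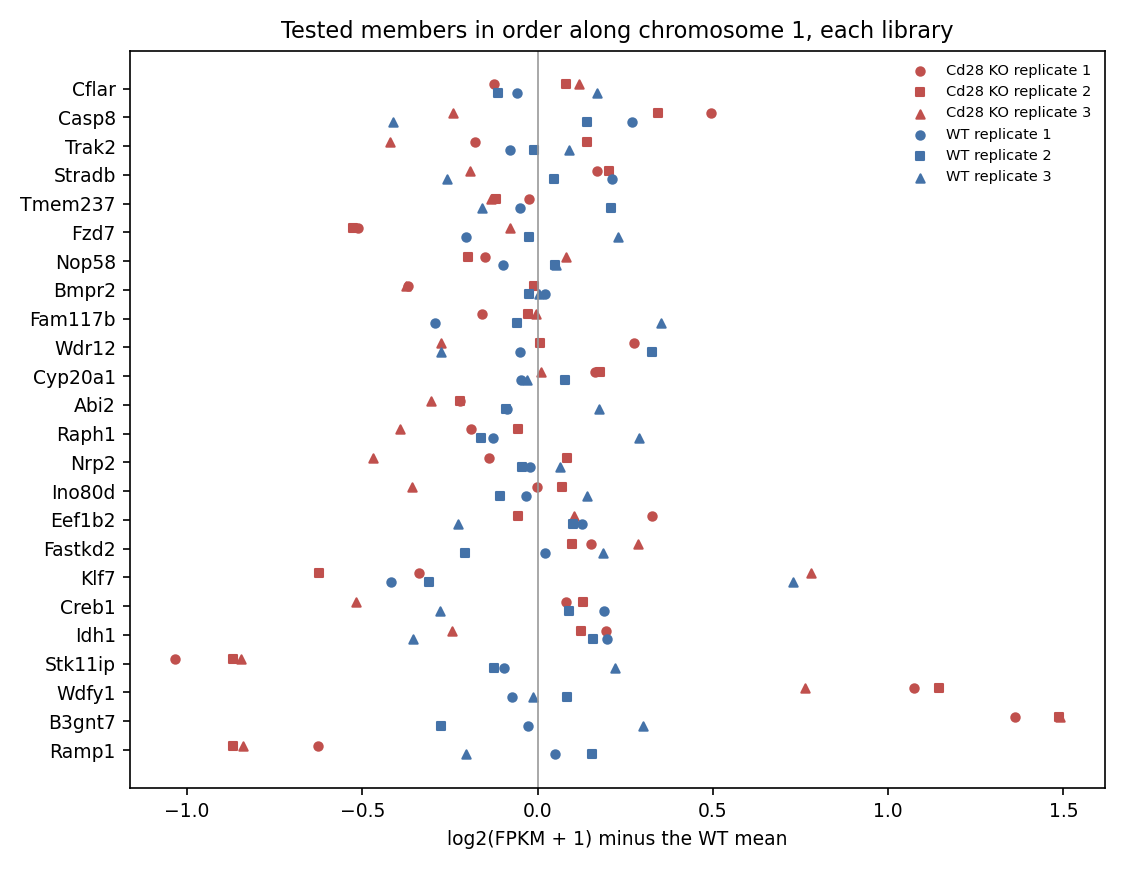
log2(FPKM + 1) of each library minus the WT mean (x axis) for the 24 tested members in chromosome order (y axis), with Cd28 KO in red, WT in blue and a symbol for each replicate number. Colours separate in the rows of Stk11ip, Wdfy1, B3gnt7, Ramp1 and, narrowly, Abi2, while in Casp8, Klf7, Creb1 and Idh1 the triangles of replicate 3 stand away from the other symbols.

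The death-signalling pair Cflar and Casp8 lies side by side, 1.99 and 1.90 Mb before Cd28. Casp8 encodes caspase-8, which death receptors activate, and Cflar encodes c-FLIP, its relative without catalytic activity that restrains it. Cflar stood at 13.0, 15.2 and 15.6 FPKM in Cd28 KO and at 13.7, 13.2 and 16.2 FPKM in WT, a log2 difference of 0.03 ± 0.14 (SE, 95% interval -0.30 to 0.35). Casp8 stood at 32.1, 28.8 and 18.9 FPKM in Cd28 KO and at 27.3, 24.9 and 16.6 FPKM in WT. Within each same-numbered pair Casp8 was higher in Cd28 KO, by 0.17 to 0.23 on the log2 scale. The SE of the difference was 0.25 without the block and 0.09 with it, where the limma adjusted p was 0.656. Of 16 partners of this pathway, all tested, limma called 0 with or without the block, and 0 were higher and 2 lower without overlap (12.5% in either direction, against 6.71% of all tested genes).

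Receptors near Cd28 were Fzd7, which binds Wnt proteins, and Bmpr2, the type II receptor for bone morphogenetic proteins. Fzd7 had the most negative difference within 5 Mb. Its Cd28 KO libraries held 5.03, 4.97 and 7.14 FPKM and its WT libraries 6.46, 7.46 and 9.07 FPKM, so that each Cd28 KO value was below the WT value of the same number but the groups overlapped through replicate 3. The log2 difference was -0.37 ± 0.19 (SE, 95% interval -0.82 to 0.07) without the block. With the block the SE was 0.12 and the limma adjusted p was 0.466. Bmpr2 stood at 5.17, 6.92 and 5.15 FPKM in Cd28 KO against a narrow 7.10, 6.84 and 7.00 FPKM in WT, and Cd28 KO replicate 2 was the library that closed the gap (log2 difference -0.25 ± 0.15, SE).

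Kinase and transport proteins of the stretch before Cd28 varied within the replicate error. Stradb, the pseudokinase partner of LKB1, had a log2 difference of 0.06 ± 0.18 (SE), and Trak2, an adaptor that ties mitochondria to kinesin, -0.15 ± 0.17. Tmem237, a protein of the ciliary transition zone, had -0.09 ± 0.15. Fam117b stood at 8.29, 9.16 and 9.33 FPKM in Cd28 KO, inside the range of 7.46, 8.94 and 12.2 FPKM in WT (-0.06 ± 0.19, SE). Cyp20a1, a cytochrome P450 with no assigned substrate, stood at 13.9, 14.0 and 12.4 FPKM in Cd28 KO and 11.8, 13.0 and 11.99 FPKM in WT, with overlap through 1 library on each side (0.12 ± 0.12, SE).

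Genes of ribosome assembly and translation were as close. Nop58 had a log2 difference of -0.09 ± 0.13 (SE), and Wdr12, a subunit of the PeBoW complex that matures the large ribosomal subunit, stood at 7.58, 6.13 and 4.86 FPKM in Cd28 KO and at 5.86, 7.89 and 4.86 FPKM in WT, a difference of 0.00 ± 0.22. Eef1b2 stood at 170, 130 and 145 FPKM in Cd28 KO and at 148, 145 and 116 FPKM in WT (0.12 ± 0.14, SE, 95% interval -0.21 to 0.46). Processed copies of Eef1b2 exist elsewhere in the genome, so its own value is uncertain. Fastkd2, which binds RNA of the mitochondrial ribosome, had 6.08, 5.81 and 6.77 FPKM in Cd28 KO and 5.46, 4.52 and 6.24 FPKM in WT, higher in each same-numbered pair but with overlapping groups (0.18 ± 0.16, SE).

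Of the transcription and chromatin proteins, Ino80d, a subunit of the INO80 remodelling complex, stood at 3.11, 3.32 and 2.21 FPKM in Cd28 KO and at 3.02, 2.82 and 3.54 FPKM in WT (log2 difference -0.10 ± 0.17, SE). Creb1, the transcription factor that cyclic AMP signalling activates, had -0.10 ± 0.23, and the Kruppel-like factor Klf7 had -0.06 ± 0.44. Idh1 had 0.03 ± 0.19. The wide error of Klf7 reflects its replicate 3 libraries, described below, and its 95% interval ran from -1.10 to 0.98. With the block the SE of Klf7 was 0.14.

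The 6 untested members were barely listed. Carf, a calcium-responsive transcription factor, was listed in all libraries at 0.31 to 1.02 FPKM, and Nbeal1, a BEACH domain protein, at 0.27 to 0.92 FPKM. Ica1l did not exceed 0.12 FPKM and Pard3b, a relative of the polarity protein Par3, did not exceed 0.05 FPKM. Adam23, a surface ADAM protein without protease activity, was listed in 2 Cd28 KO libraries at 0.02 and 0.03 FPKM, and the imprinted gene Zdbf2 in 1 Cd28 KO library at 0.02 FPKM. At such values and unknown depth no difference between the genotypes could be seen or set aside. Carf and Wdr12, and also Ica1l and Fam117b, share exonic bases on opposite strands (61 and 473 bases by GENCODE M21).

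The relation to distance was then looked at over all tested genes of chromosome 1, with Cd28 left out. Within 5 Mb of Cd28, 2 of 39 tested genes (5.13%) did not overlap between the genotypes, which are Abi2 and Fzd5, another Wnt receptor and not a member. From 5 to 10 Mb it was 2 of 28 (7.14%), from 10 to 20 Mb 9 of 56 (16.1%), from 20 to 40 Mb 21 of 119 (17.6%) and beyond 40 Mb 39 of 335 (11.6%). On other chromosomes it was 605 of 9586 (6.31%). The classes from 10 to 40 Mb include the 4 remote members. The share within 5 Mb depended on single libraries and on scaling. It was 9 of 39 (23.1%) without Cd28 KO replicate 2, where 19.0% of all tested genes did not overlap, 8 of 40 without Cd28 KO replicate 3 (24.3% of all) and 20.5% without WT replicate 3 (23.5% of all). It was 10.3% without WT replicate 2 (9.81% of all), and with quantile normalization (7.41% of all) or median centring (6.76% of all). In replicates 1 and 2 alone it was 41.0%, against 44.0% of all tested genes, and with a minimum mean of 5 FPKM it was 0 of 31. Whether the class next to Cd28 lay above or below the share over all genes therefore changed with the setting. These genes share libraries and neighbourhood and are not replicates, so the shares are descriptions.

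**Figure D4:**
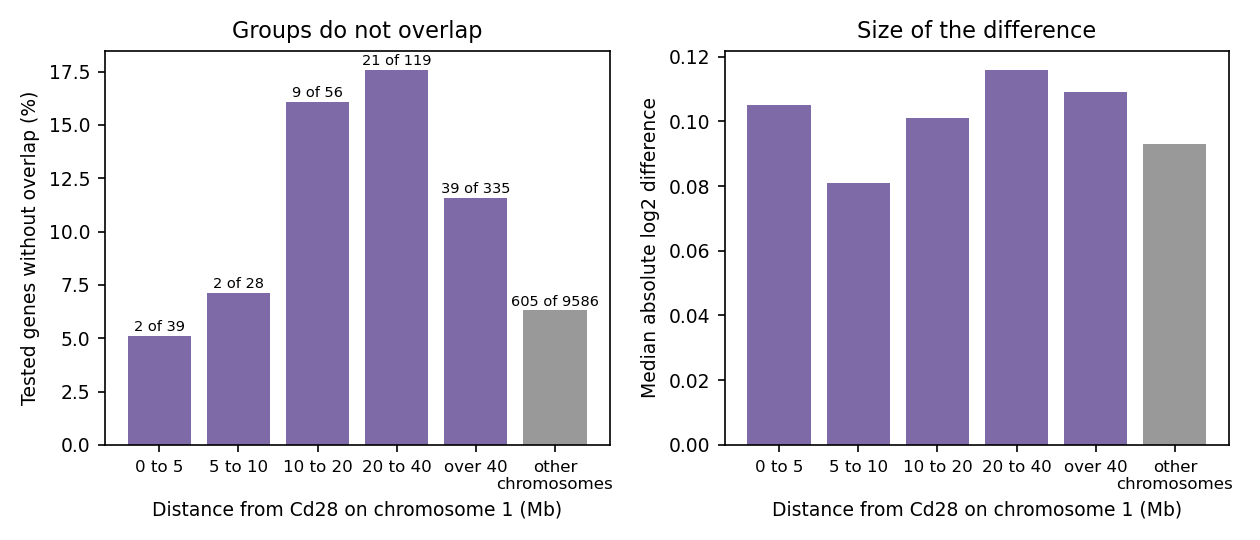
Left, percent of tested genes whose Cd28 KO and WT libraries do not overlap (y axis), by distance from Cd28 on chromosome 1 in Mb (x axis, purple bars) and for other chromosomes (grey bar), with the counts above each bar. Right, median absolute difference on the log2(FPKM + 1) scale for the same classes, which lies between 0.08 and 0.12 in all of them.

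The median absolute log2 difference was 0.10 within 5 Mb, 0.08 from 5 to 10 Mb, 0.10 from 10 to 20 Mb, 0.12 from 20 to 40 Mb and 0.11 beyond 40 Mb, against 0.09 on other chromosomes. Without WT replicate 1 it was 0.176 within 5 Mb, against 0.118 on other chromosomes, and without Cd28 KO replicate 2 it was 0.162 against 0.134. Median levels were 6.98, 10.7, 12.5, 13.4 and 11.7 FPKM in these classes and 12.3 FPKM on other chromosomes, so the genes next to Cd28 were the less expressed ones. Across the 577 tested genes of chromosome 1 without Cd28, members included, the absolute difference and the distance had a Spearman rho of -0.0. Across the 24 tested members rho was 0.25, and across the 20 within 5 Mb it was -0.28. The members were listed with their differences known, and all 4 beyond 5 Mb had separated groups, so nothing is read from the rho of the members. Across the 87 tested non-members between Cflar and Ramp1 rho was 0.07. These values are descriptions across genes that share the same 6 libraries.

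Among those 87 genes, 8 were higher and 4 lower without overlap (13.8% in either direction, against 6.71% of all tested genes). Several of the higher ones are close neighbours, with C130026I21Rik, Sp110, Sp140 and Sp100 at 24.47 to 24.88 Mb and Ugt1a7c and Ugt1a6b at 27.32 and 27.33 Mb. With the block, limma called 3 of the 87, namely Acadl, C130026I21Rik and Ugt1a6b, where 0.177% of all tested genes were called. C130026I21Rik passed the minimum level only through the Cd28 KO libraries, since its WT values were 0.48, 0.61 and 0.38 FPKM. Acadl, a mitochondrial enzyme of fatty acid oxidation 6.06 Mb from Cd28, was the called gene closest to Cd28 on this chromosome, at 27.7, 25.9 and 26.8 FPKM in Cd28 KO and 45.8, 51.2 and 41.0 FPKM in WT. Chromosome 1 as a whole had 74 of 578 tested genes without overlap (12.8%). The other autosomes and chromosome X had between 4.47% (chromosome 19) and 8.36% (chromosome 12). With the block limma called 10 of the 578 genes of chromosome 1, against 8 of 9586 on other chromosomes. The 10 include the 3 called members, which were listed with this contrast known, and the difference between these shares was not tested.

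The replicate number, which the choice of members did not use, was tested by limma's F test in a fit with genotype and replicate number. It called 4 of the 24 tested members (16.7%), where 21.4% of all tested genes were called, a share of members below that background. Klf7, 1 of the 4, passed the minimum level only through replicate 3, where it was high, so its call is given as a description. The other 3 were Casp8, Creb1 and Idh1, with limma adjusted p values of 0.00482, 0.0455 and 0.0201. All 4 lie within 5 Mb of Cd28, but so do 20 of the 24 tested members. The share called there, 4 of 20, was close to the 21.4% of all tested genes, so no tie to distance is read from it.

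Klf7 was higher in the replicate 3 libraries, with 3.36 FPKM for Cd28 KO and 3.21 FPKM for WT, against 0.65 to 1.05 FPKM in the other 4 libraries, a ratio of 3.64. The other 3 were lower there. Casp8 stood at 16.6 and 18.9 FPKM in replicate 3 and at 24.9 to 32.1 FPKM elsewhere. Creb1 stood at 4.24 and 5.18 FPKM in replicate 3 and at 6.94 to 7.56 FPKM elsewhere, and Idh1 at 91.0 and 98.3 FPKM against 127 to 134 FPKM. In each of these genes both genotypes moved alike, and the Cd28 KO and WT values overlapped. RNA of Y chromosome genes was present in replicate 3 only, so sex and other differences of replicate 3 cannot be told apart. Creb1 was no longer called when replicate 1 of either genotype or Cd28 KO replicate 3 was left out, and Idh1 when replicate 1 of either genotype was left out. Leaving out replicate 1 of Cd28 KO or of WT gave 2 called members, where 15.6% and 15.8% of all tested genes were called. Creb1 was also lost with no filter, a minimum mean of 5 FPKM, the TPM scale, quantile normalization and median centring, and Idh1 with no filter and median centring. Casp8 was called in each of these settings.

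**Figure D5:**
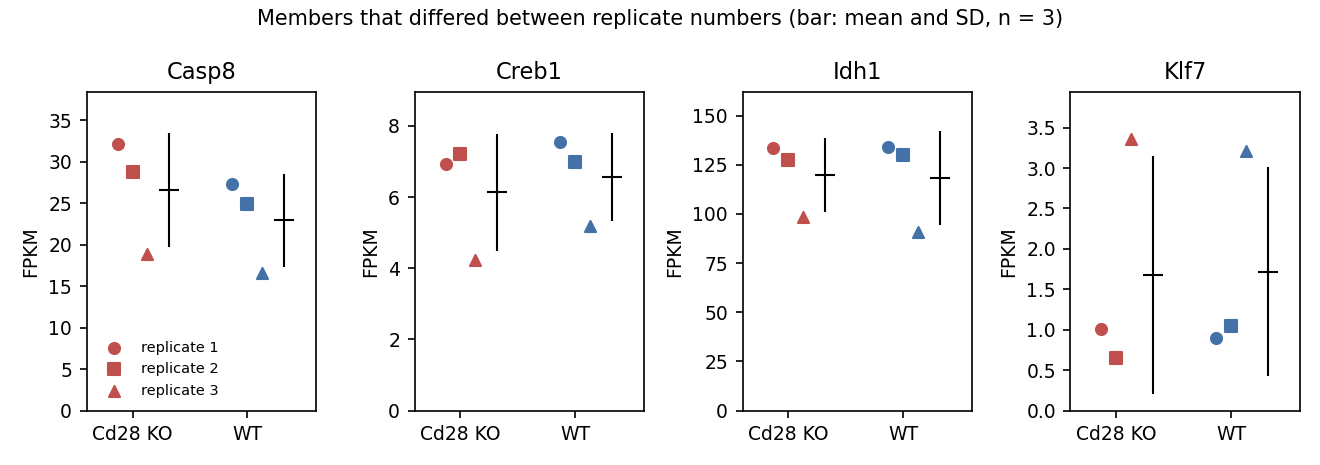
FPKM (y axis, from 0) in each library for the 4 members that differed between replicate numbers, with a symbol for each replicate number and a bar for the mean and SD of 3 libraries. In both genotypes the replicate 3 triangle is the lowest point for Casp8, Creb1 and Idh1 and the highest for Klf7.

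Genes that work with the members but mostly lie elsewhere in the genome were counted in 18 lists with 154 partners, of which 132 were tested. limma called 0 of them without and 0 with the block, and at an unadjusted p below 0.05 it listed 1 and 9. Of the 132, 55 had a positive and 77 a negative difference, and the median absolute log2 difference was 0.09, the same as over all tested genes. Without overlap 1 partner was higher (0.758%) and 5 were lower (3.79%), against 3.84% and 2.87% of all tested genes. The largest of these differences was in Plxna1, a plexin that signals with neuropilins, at 26.9, 34.5 and 23.6 FPKM in Cd28 KO and 38.0, 36.4 and 39.2 FPKM in WT (log2 difference -0.42 ± 0.15, SE).

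Among the partners of the 4 remote members limma called 0, with or without the block. Tested partners were 8 for Wdfy1 (Toll-like receptors 3 and 4 with TRIF and its kinases), with a median log2 difference of 0.06, and 7 for B3gnt7 (enzymes of polylactosamine and keratan sulfate), with -0.11. Without overlap, 1 of the 8 was lower (12.5%) and 0 of the 7 differed, against 6.71% of all tested genes in either direction. The LKB1 list of Stk11ip and Stradb had 8 tested partners with a median of -0.06. Of these, 1 was lower without overlap (12.5%), namely Cab39, which is on chromosome 1. Its means were 57.2 ± 1.23 FPKM for Cd28 KO against 67.7 ± 11.9 FPKM for WT (SD, n = 3 each). Of 6 partners of Ramp1, 2 reached 1 FPKM. Calcrl, the receptor that Ramp1 joins, named here after its values were seen, was at 12.6, 11.2 and 7.28 FPKM in Cd28 KO against 12.2, 12.8 and 7.79 FPKM in WT, with overlapping groups. Ctla4 and Icos, the neighbours of Cd28, were listed but did not reach that minimum.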

How the data were processed

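The deposited values were FPKM, 1 per gene and library, made by the authors with Bowtie and RSEM on GRCm38, per the submitters' processing notes; their versions were not known here. Genes missing from a file were set to 0. Entrez numbers were matched to RefSeq (GRCm38.p6), 14551 of 14574. Promoters came from RefSeq, where 22 members had 1 entry. A mean of 1 FPKM over the 6 libraries was required, and such genes were tested with limma 3.58.1 (R 4.3.3, trend) on log2(FPKM + 1), a scale on which low genes show smaller changes than by ratio, with Benjamini-Hochberg adjustment over all 10172 tested genes, two-sided. Ratios are of group means. Deviations of same-numbered libraries correlated at 0.752, 0.505 and 0.783, all above 0.1. A fit blocked on replicate number is therefore given where it changes a call, and its SE for Fzd7, Casp8 and Klf7. That pairing comes from the data and not from a label, and replicate 3 dominates it.

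The members, partner lists and tests were chosen with earlier results of these data known. Values in every library were to be given for members called, without overlap, nearest to Cd28 (5 tested per side) or most abundant; further members were added after their values were seen. The scripts were tested on simulated data. Alternatives covered the block, a replicate 3 term, pseudocount, filters, scaling and each library left out. Distances and permutations used SciPy 1.17.1 and NumPy 2.4.6, tables pandas 2.3.3 under Python 3.11.15, and plots Matplotlib 3.10.9.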

Additional observations from a re-analysis of the deposited data

How the results depend on the processing

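With the replicate block limma called 3 members, where 0.177% of all tested genes were called, against 0 members and 0.0197% without it. These counts describe members chosen with that contrast known, and B3gnt7 passed the filter only through Cd28 KO. The count was also 3 when the block was combined with a pseudocount of 0.1, TPM scale, quantile normalization or median centring (combinations chosen after seeing the data). There 0.177%, 0.196%, 0.157% and 0.128% of all tested genes were called. The count was 2 with a minimum mean of 5 FPKM and the block, which drops B3gnt7, where 0.131% of all tested genes were called. The count was 0 with no filter and the block, where 3 genes were called in all (0.0206%). With a term for replicate 3, and with replicates 1 and 2 only, it was 4, where 28 and 96 genes were called in all (0.275% and 0.945%). Without the block the count stayed at 0 with each library left out (0 to 0), and the blocked fit was not run with libraries left out. Members higher in every Cd28 KO library numbered 6 with replicates 1 and 2 only and 1 with a minimum mean of 5 FPKM. With 1 library left out they numbered 2 to 4. In the same order, 25.8%, 4.24% and 4.97% to 16.7% of all tested genes were higher. Lower members numbered 5, 1, and 3 to 7, where 18.3%, 2.63% and 4.14% to 12.3% of all tested genes were lower. The median log2 difference of the tested members was 0.022 with replicates 1 and 2 only, -0.013 with no filter, -0.131 on the TPM scale, and -0.116 to -0.021 with 1 library left out. Within 5 Mb of Cd28 the median absolute log2 difference was 0.13 to 0.18 with 1 library left out, the highest without WT replicate 1, where it was 0.12 on other chromosomes. Members called between replicate numbers were 2 with no filter, 2 with a minimum mean of 5 FPKM, and 2 to 6 with 1 library left out, where 6.62%, 20.6% and 15.6% to 36.1% of all tested genes were called. Some settings leave fewer tested members or fewer samples, and the cause of these shifts was not tested. The unknown read depth limits what the untested members can show.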
